A study of Bos grunniens x Bos taurus and Bos grunniens with 6 samples.

Results

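The genes described here encode the dynein motors of the testis, with the factors that assemble them, in yak and in cattle-yak, the hybrid of cattle and yak whose males are sterile. They were chosen by symbol, as every row of the FPKM table named as an axonemal heavy, intermediate or light chain (DNAH, DNAI, DNAL and DNALI1), as a dynein assembly factor (DNAAF) or as a cytoplasmic dynein chain (DYNC and DYNL). This gave 41 of the 18918 genes of the table, namely 20 axonemal subunits, 4 assembly factors and 17 cytoplasmic or shared chains, under 34 different symbols. The 3 cattle-yak libraries (TES5, TES6 and TES7) came from F1 males of a Jersey bull and a Gannan yak cow, and the 3 yak libraries (Yak8, Yak9 and Yak10) from Gannan yak males. Every animal was 4 years old and gave 1 library of testis tissue. The groups were kept in different counties, and per the paper's methods the cattle-yak were castrated while the yaks were euthanized, so place and collection coincided with the groups and cannot be told apart from them.

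Dyneins are motors that walk along microtubules towards their minus end. Axonemal dyneins form the outer and inner arms of the doublet microtubules in motile cilia and in the sperm tail, and each arm is built from large heavy chains, which carry the motor, and smaller intermediate and light chains. The arms are put together in the cytoplasm by assembly factors before they enter the axoneme. Cytoplasmic dynein 1 carries cargo and positions nuclei and spindles in nearly all cells, cytoplasmic dynein 2 returns material from the tip of cilia, and several light chains are shared between these motors. In the testis the sperm tail is built in spermatids, while Sertoli cells use cytoplasmic dynein to move developing germ cells.

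Each cattle-yak library rested on 11175100 to 11834987 fragments on genes, and each yak library on 12991641 to 13136129. The 15042 genes whose FPKM averaged 0.5 or more were tested with limma on log2 (FPKM + 1), a scale that understates the change of low genes, and were called at an adjusted p under 0.05 with a log2 (foldchange) beyond 1. Over all tested genes the median log2 (foldchange) of cattle-yak against yak was 0.51, and it was 0.01 after median-of-ratios scaling of the libraries. A value under 0.51 is therefore low against the typical gene. The marker genes of the seminiferous epithelium differed widely between the groups. The summed FPKM of 8 round spermatid markers ranged from 7.74 to 41.5 in the hybrids and from 1458 to 1808 in yak, and that of 10 spermatocyte markers from 265.6 to 379.5 and from 647.5 to 708.1. Of the spermatocyte markers, 4 were called lower and 1 higher, against 20.8% and 33.4% of all tested genes, with a median log2 (foldchange) of −0.14. The 16 Sertoli markers summed to 3288 to 3599 FPKM in cattle-yak against 714.5 to 787.9 FPKM in yak, and 15 of them were called higher. In bulk tissue, fewer cells of a type and less RNA per cell cannot be told apart, and the part of these markers in the results below was not tested.

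Of the 41 dynein genes, 38 passed the filter on low values. The axonemal subunits were lower in cattle-yak, while the cytoplasmic chains moved in both directions. Of 19 axonemal genes tested, 15 were called lower and none higher, against 20.8% of all tested genes called lower and 33.4% called higher. Counted by symbol, 12 of 16 axonemal subunits were lower. After median-of-ratios scaling 17 of the 19 axonemal genes were lower, against 27.7% of all genes, and none was higher, against 17.7%. Of 15 cytoplasmic genes tested, 3 were called higher and 3 lower, whereas median-of-ratios scaling left 4 lower and none higher, and centring on the Sertoli list 12 lower and none higher, against 67.3% and 0.366% of all genes. The median log2 (foldchange) was −2.76 in the axonemal genes and 0.45 in the cytoplasmic genes, the latter close to the median of all genes. The values of the groups did not overlap in 35 of the 38 members tested (92.1%), as in 84.1% of all tested genes.

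**Figure D1:**
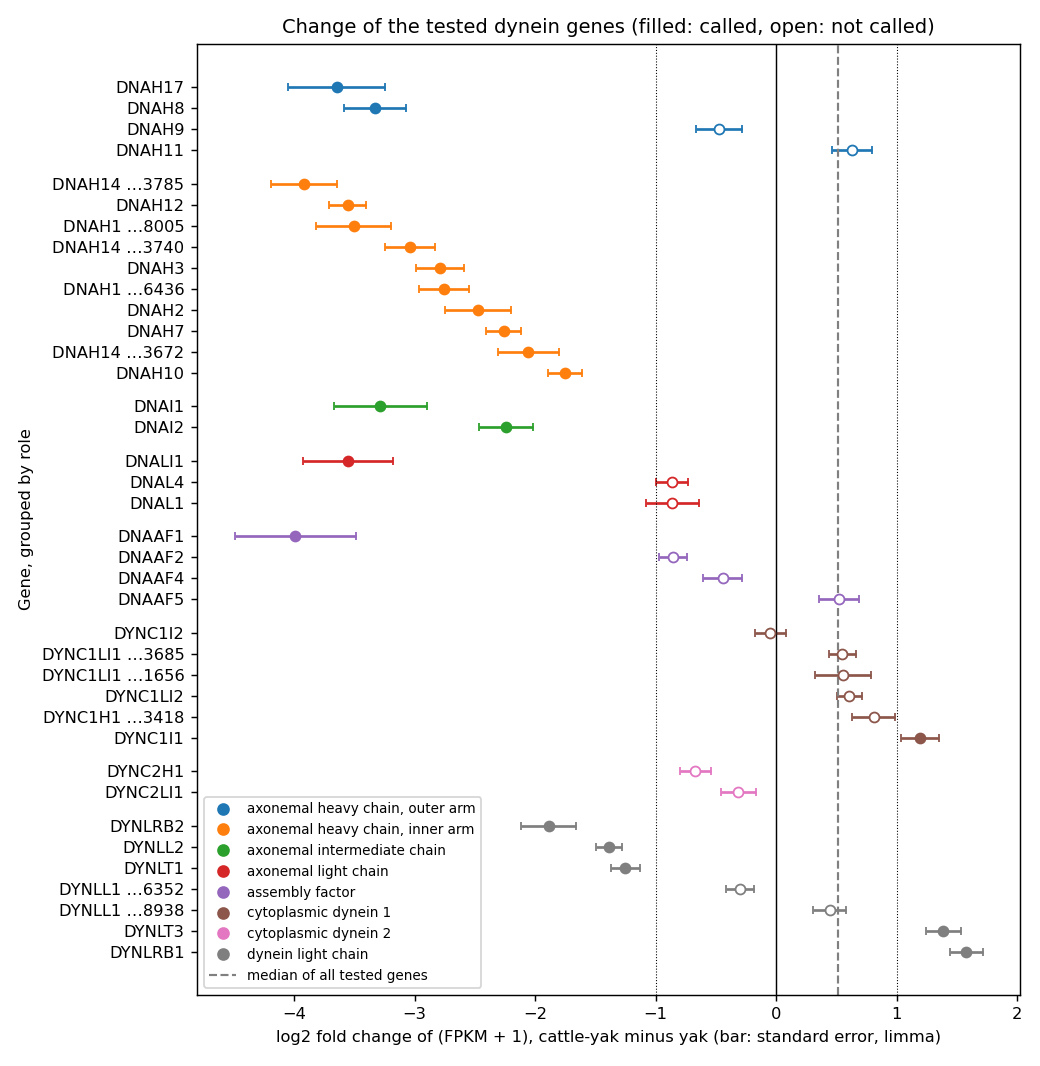
The plot gives the log2 (foldchange) of each tested dynein gene on the log2 (FPKM + 1) scale, cattle-yak minus yak, with its standard error from limma, coloured by role, with filled points for called genes. The inner arm heavy chains all lie left of −1, the cytoplasmic dynein 1 genes lie between −0.05 and 1.19, on both sides of the dashed line at the median of all genes (0.51), and the light chains spread to both sides.

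Summed over its 20 genes, the axonemal FPKM was 88.4 in TES5, 69.4 in TES6 and 55.6 in TES7, against 469.1 in Yak8, 483.8 in Yak9 and 441.7 in Yak10. The group means were 71.1 ± 16.5 and 464.9 ± 21.4 (SD, n = 3 each), which is 6.54-fold higher in yak. The cytoplasmic FPKM was 1756 ± 140.3 in cattle-yak against 2602 ± 106.2 in yak (SD, n = 3 each), 1.48-fold higher in yak. The short and abundant light chains made up most of it. The axonemal genes thus held 3.87% ± 0.68 of the summed FPKM of axonemal and cytoplasmic genes in cattle-yak against 15.2% ± 1.01 in yak (SD, n = 3 each). Among the heavy chains alone the axonemal share was 36.2%, 30.4% and 22.3% in TES5, TES6 and TES7, and 83.7%, 83.8% and 86.9% in Yak8, Yak9 and Yak10. In each yak library most heavy chain FPKM was therefore axonemal, and in each cattle-yak library most of it was cytoplasmic. These shares are ratios within a library and do not depend on the scaling between libraries.

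The outer arm heavy chains did not move together. DNAH17 and DNAH8 are the outer arm heavy chains known from the sperm tail, where they stand in the place of DNAH9 and DNAH5 of airway cilia. DNAH17 was at 5.51, 3.02 and 0.902 FPKM in TES5, TES6 and TES7 and at 50.2, 52.2 and 34.9 FPKM in Yak8, Yak9 and Yak10. Its mean was 14.6-fold higher in yak (log2 (foldchange) −3.65 ± 0.40 SE, adjusted p = 4.9e-05). DNAH8 was at 2.19, 1.17 and 0.666 FPKM in cattle-yak and at 24.8, 24.6 and 16.8 FPKM in yak, in the same order of animals. It fell by 3.33 on the log2 scale (SE 0.26, adjusted p = 6.7e-06). For both genes every cattle-yak animal lay far below every yak animal, and TES7 was the lowest of all.

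The outer arm heavy chains of airway cilia gave another picture. DNAH9 was at 2.55, 3.38 and 1.83 FPKM in cattle-yak and at 3.70, 4.37 and 3.70 FPKM in yak. Its log2 (foldchange) of −0.48 ± 0.19 SE was not called, and it was −0.94 after median-of-ratios scaling, also not called. DNAH11, a heavy chain placed in the proximal part of airway cilia, was at 7.84, 10.9 and 7.496 FPKM in cattle-yak and at 5.20, 4.88 and 5.61 FPKM in yak. It had a log2 (foldchange) of 0.63 ± 0.16 SE (adjusted p = 0.0070) and was not called, and with 0.09 after median-of-ratios scaling it lay near the typical gene on either scale, as with −1.40 when the libraries were centred on the Sertoli list, where the median of all genes was −1.51. DNAH5 was under the filter, with 7, 40 and 38 fragments in cattle-yak and 124, 120 and 112 in yak, with at most 0.653 FPKM in a library. The groups did not overlap for DNAH9, DNAH11 or DNAH5, as in 84.1% of all tested genes. DNAH11 was the only outer arm heavy chain with the higher values in cattle-yak.

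The make-up of the outer arm heavy chains therefore differed between the groups. DNAH8 and DNAH17 together held 42.5%, 22.4% and 14.1% of the outer arm heavy chain FPKM in TES5, TES6 and TES7, and 88.7%, 88.6% and 83.9% in Yak8, Yak9 and Yak10. DNAH11 held 43.3%, 58.1% and 67.4% in cattle-yak and 6.15%, 5.62% and 9.11% in yak. Among all 15 axonemal heavy chain genes DNAH11 ranked 1 in each cattle-yak library and 13 in each yak library. The most abundant axonemal heavy chain of the cattle-yak testis was thus among the least abundant in yak.

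**Figure D2:**
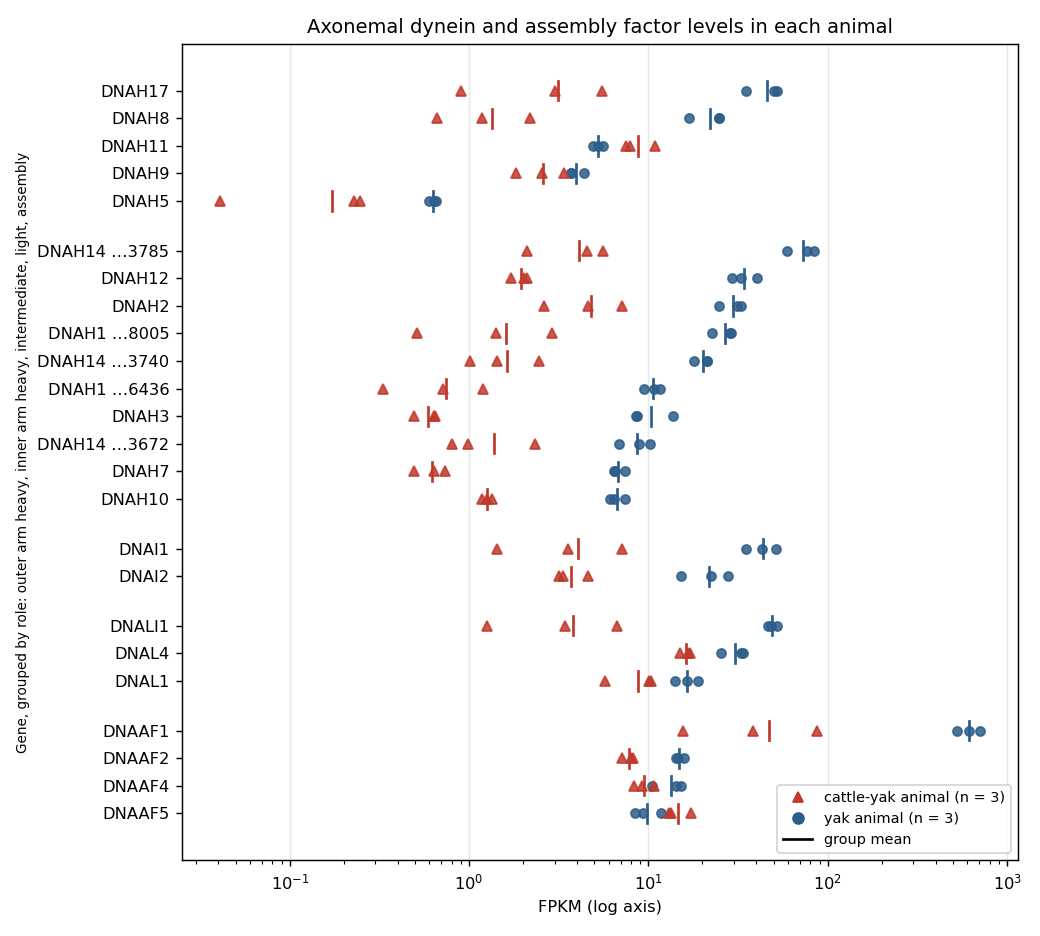
The plot gives the FPKM (log axis) of each axonemal subunit and assembly factor in each of the 6 animals, grouped by role, with triangles for cattle-yak, circles for yak and a bar for each group mean. The inner arm genes form separate clusters for the groups, DNAH11 and DNAAF5 lie higher in cattle-yak, and DNAAF1 stands above all others in yak with 527.1 to 703.3 FPKM.

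All 10 inner arm heavy chain genes, the uncertain DNAH14 genes described below included, were called lower, against 20.8% of all tested genes. Their log2 (foldchange) values ran from −3.92 to −1.76, with a median of −2.78. With median-of-ratios scaling all 10 stayed lower, against 27.7% of all tested genes (median −3.17). The mean was between 5.28-fold and 17.9-fold higher in yak. These values rested on 17 to 1187 fragments per gene and library in cattle-yak and on 315 to 6205 in yak. DNAH12 is a single-headed inner arm chain. It was at 2.10, 2.03 and 1.72 FPKM in TES5, TES6 and TES7 and at 32.7, 29.1 and 40.1 FPKM in Yak8, Yak9 and Yak10 (log2 (foldchange) −3.56 ± 0.15 SE, adjusted p = 3.9e-07). DNAH3, of the same kind, was at 0.635, 0.491 and 0.648 FPKM in cattle-yak and at 13.7, 8.62 and 8.50 FPKM in yak, a fall by 2.79 on the log2 scale. DNAH7 was at 0.736, 0.638 and 0.492 FPKM in cattle-yak and at 7.42, 6.51 and 6.39 FPKM in yak, with a log2 (foldchange) of −2.26. For DNAH12, DNAH3 and DNAH7 the spread within cattle-yak was small beside the distance to yak.

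DNAH2 and DNAH10 pair up in the double-headed inner arm. DNAH2 was at 7.14, 4.58 and 2.62 FPKM in cattle-yak and at 31.2, 33.0 and 24.9 FPKM in yak (log2 (foldchange) −2.48 ± 0.27 SE). DNAH10 was at 1.34, 1.27 and 1.18 FPKM in cattle-yak and at 7.38, 6.46 and 6.12 FPKM in yak (−1.76 ± 0.14 SE). The means differed 6.21-fold for DNAH2 and 5.28-fold for DNAH10, and whether the partners differed in their change was not tested. DNAH2 was 2.72-fold and DNAH10 1.14-fold higher in TES5 than in TES7.

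The DNAH1 symbol stood on a pair of genes. The gene ENSBGRG00000008005, described as heavy chain 1, was at 2.89, 1.41 and 0.512 FPKM in cattle-yak and at 28.5, 28.8 and 22.7 FPKM in yak (log2 (foldchange) −3.51 ± 0.31 SE). The gene ENSBGRG00000006436 carries the same symbol, but its description in the table names heavy chain 6. It was at 1.19, 0.718 and 0.332 FPKM in cattle-yak and at 11.7, 10.7 and 9.42 FPKM in yak (−2.76 ± 0.20 SE). Both were lower in cattle-yak, and which chain the latter encodes is uncertain.

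DNAH14, counted here with the inner arm, stood on 3 genes of 3533, 3304 and 693 bases, whereas the other axonemal heavy chain genes ran from 11920 to 14962 bases. None of the 3 is long enough for a whole heavy chain, so they are reported as uncertain, and they may count 1 chain more than once in the sums above. The 15 axonemal heavy chain genes, these 3 included, summed to 34.6 ± 11.1 FPKM in cattle-yak and 304.0 ± 14.5 FPKM in yak (SD, n = 3 each). Group means of the 3 DNAH14 genes were 1.37 and 8.61 FPKM (ENSBGRG00000003672), 1.64 and 20.2 FPKM (ENSBGRG00000003740), and 4.08 and 72.9 FPKM (ENSBGRG00000003785), in cattle-yak and yak. The shortest gene was the most abundant of the 3 and had a log2 (foldchange) of −3.92 from 46, 35 and 17 fragments in cattle-yak and 538, 693 and 751 in yak. All 3 were called lower, against 20.8% of all tested genes. None overlapped between the groups, as in 84.1% of all tested genes.

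The intermediate chains DNAI1 and DNAI2 sit side by side at the base of the outer arm, and both were lower. DNAI1 was at 7.14, 3.55 and 1.44 FPKM in TES5, TES6 and TES7 and at 43.2, 51.5 and 35.04 FPKM in Yak8, Yak9 and Yak10 (log2 (foldchange) −3.29 ± 0.39 SE, adjusted p = 7.3e-05). DNAI2 was at 4.58, 3.34 and 3.19 FPKM in cattle-yak and at 22.3, 27.7 and 15.1 FPKM in yak (−2.25 ± 0.23 SE, adjusted p = 2.8e-05). DNAI1 exceeded DNAI2 in each yak library and in TES5 and TES6, and lay below it in TES7.

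The light chains divided. DNALI1, the light intermediate chain of the inner arms, was at 6.69, 3.41 and 1.26 FPKM in cattle-yak and at 48.4, 46.6 and 52.0 FPKM in yak. Its log2 (foldchange) was −3.55 ± 0.38 SE (adjusted p = 3.9e-05), from 15 fragments in TES7 at the lowest. DNAL1, a light chain bound to the outer arm motor, was at 10.4, 5.76 and 10.1 FPKM in cattle-yak and at 14.0, 16.3 and 18.8 FPKM in yak. DNAL4 was at 15.0, 16.6 and 17.0 FPKM in cattle-yak and at 33.6, 25.3 and 32.7 FPKM in yak. Both had a log2 (foldchange) of −0.86 and were not called, but were called lower after median-of-ratios scaling (−1.43 and −1.45). DNAL1, DNAL4 and DNAH9 were the axonemal genes with the values closest to 0 on the lower side. None of the 3 overlapped between the groups, as in 84.1% of all tested genes.

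The 4 assembly factors named DNAAF were as divided as the light chains. Further genes that assist assembly have other symbols and are counted with the docking genes below. DNAAF1, a leucine-rich repeat protein needed for both arms, was the most abundant gene among the axonemal subunits and DNAAF genes in yak. It was at 86.6, 38.3 and 15.6 FPKM in TES5, TES6 and TES7 and at 615.7, 703.3 and 527.1 FPKM in Yak8, Yak9 and Yak10 (log2 (foldchange) −3.99 ± 0.50 SE, adjusted p = 0.00011). Among all genes it held ranks 83 to 128 in the yak libraries and ranks 1307 to 6492 in the cattle-yak libraries. DNAAF2, a cochaperone of the heavy chains, was at 8.01, 7.08 and 8.21 FPKM in cattle-yak and at 15.7, 14.3 and 14.6 FPKM in yak. Its log2 (foldchange) of −0.86 ± 0.12 SE was not called, and was −1.42 and called after median-of-ratios scaling.

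DNAAF4, another cochaperone, was at 8.34, 9.25 and 10.7 FPKM in cattle-yak and at 10.5, 14.2 and 15.2 FPKM in yak. It was the only DNAAF gene whose groups overlapped. Its log2 (foldchange) was −0.45 ± 0.17 SE as deposited and −1.01 after median-of-ratios scaling, where it was called lower. DNAAF5, a HEAT repeat protein, was at 13.02, 13.4 and 17.3 FPKM in cattle-yak and at 8.45, 9.36 and 11.7 FPKM in yak. Its log2 (foldchange) of 0.52 ± 0.16 SE was not called and turned to −0.05 after median-of-ratios scaling. Against 20.8% of all tested genes, 1 of the 4 DNAAF genes was called lower, and 3 of 4 against 27.7% after median-of-ratios scaling.

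The 6 tested genes of cytoplasmic dynein 1 had a median log2 (foldchange) of 0.58 on the deposited scale, which became 0.06 after median-of-ratios scaling and −1.45 when the libraries were centred on the Sertoli list. The median of all genes on these scales was 0.51, 0.01 and −1.51. The heavy chain gene DYNC1H1 (ENSBGRG00000013418) was at 70.9, 76.2 and 71.4 FPKM in TES5, TES6 and TES7 and at 46.4, 49.5 and 30.1 FPKM in Yak8, Yak9 and Yak10. Its log2 (foldchange) of 0.81 ± 0.18 SE (adjusted p = 0.0028) did not reach the fold threshold and was 0.20 after median-of-ratios scaling. A short gene with the same symbol (ENSBGRG00000014654) held at most 3 fragments in a library and was not tested. Of the intermediate chains, DYNC1I1 was at 7.98, 6.21 and 6.98 FPKM in cattle-yak and at 2.27, 2.31 and 2.99 FPKM in yak. It was called higher (1.19 ± 0.16 SE, adjusted p = 0.00014), but not after median-of-ratios scaling (0.70). Centring on the Sertoli list turned it to −0.83, above the median of all genes there. DYNC1I2, the more abundant intermediate chain, was at 41.9, 30.2 and 35.5 FPKM in cattle-yak and at 35.8, 37.8 and 36.9 FPKM in yak. The groups overlapped, and the log2 (foldchange) was −0.05 ± 0.13 SE (adjusted p = 0.73).

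The light intermediate chains link the motor to its adaptors. DYNC1LI1 (ENSBGRG00000023685) was at 32.5, 32.6 and 39.0 FPKM in cattle-yak and at 23.1, 23.9 and 22.8 FPKM in yak. DYNC1LI2 was at 73.8, 75.02 and 78.98 FPKM in cattle-yak and at 53.0, 52.2 and 44.0 FPKM in yak. Their log2 (foldchange) values of 0.55 and 0.61 lay close to the median of all genes, and were −0.05 and −0.0041 after median-of-ratios scaling. A second gene named DYNC1LI1 (ENSBGRG00000011656), with 17 to 52 fragments in a library, had overlapping groups (0.55 ± 0.23 SE). Of cytoplasmic dynein 1, then, 1 of 6 tested genes was called higher and none lower, against 33.4% and 20.8% of all tested genes.

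The 2 genes of cytoplasmic dynein 2 chosen by symbol had lower means in cattle-yak and no call. Other chains of this motor, WDR34, WDR60 and TCTEX1D2, stood on a partner list given below, where TCTEX1D2 was called lower. The heavy chain DYNC2H1 was at 7.25, 7.92 and 7.04 FPKM in cattle-yak and at 13.7, 11.2 and 12.4 FPKM in yak. Its log2 (foldchange) of −0.67 ± 0.13 SE was −1.23 and called lower after median-of-ratios scaling. DYNC2LI1 was at 12.7, 12.8 and 12.2 FPKM in cattle-yak and at 15.9, 13.2 and 19.0 FPKM in yak (−0.32 ± 0.14 SE, adjusted p = 0.071). The values of the groups did not overlap for either gene, as in 84.1% of all tested genes.

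Of 7 tested genes of the small light chains, 2 were called higher and 3 lower, against 33.4% and 20.8% of all tested genes. Those chosen by symbol form 3 pairs of relatives, and in 2 of the pairs a member was called higher and the other lower. Related chains under other symbols, such as TCTEX1D2 on a partner list (−1.29, called lower), were not counted here. Of the roadblock chains, DYNLRB1 was at 159.7, 153.1 and 191.7 FPKM in cattle-yak and at 46.6, 59.0 and 61.9 FPKM in yak (log2 (foldchange) 1.58 ± 0.14 SE, adjusted p = 1.3e-05). DYNLRB2 was at 161.2, 100.2 and 84.4 FPKM in cattle-yak and at 347.4, 464.7 and 437.8 FPKM in yak (−1.89 ± 0.23 SE, adjusted p = 8.8e-05). The more abundant relative was thus DYNLRB2 in yak, and DYNLRB1 in TES6 and TES7.

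Of the Tctex-type chains, DYNLT1 was at 77.5, 61.4 and 60.6 FPKM in cattle-yak and at 149.7, 159.3 and 168.1 FPKM in yak, and was called lower (−1.25 ± 0.12 SE, adjusted p = 2.0e-05). DYNLT3 was at 17.5, 14.9 and 18.4 FPKM in cattle-yak and at 5.20, 5.45 and 6.96 FPKM in yak, and was called higher (1.39 ± 0.15 SE, adjusted p = 4.0e-05). DYNLRB1 and DYNLT3 did not reach the fold threshold after median-of-ratios scaling, with 0.97 and 0.83. With centring on the Sertoli list they turned to −0.45 and −0.64, where the median of all genes was −1.51. DYNLRB2 and DYNLT1 were called lower after median-of-ratios scaling with −2.50 and −1.86.

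The LC8-type chains DYNLL1 and DYNLL2 are shared by many complexes besides dynein. DYNLL2 was at 328.9, 314.5 and 266.6 FPKM in cattle-yak and at 774.2, 784.0 and 818.5 FPKM in yak, and was called lower (−1.39 ± 0.11 SE, adjusted p = 6.0e-06). The most abundant DYNLL1 gene (ENSBGRG00000026352) was at 825.2, 659.2 and 781.9 FPKM in cattle-yak and at 927.0, 879.2 and 974.1 FPKM in yak, with no call (−0.30 ± 0.11 SE). A shorter DYNLL1 gene (ENSBGRG00000008938) had means of 81.0 and 59.5 FPKM in cattle-yak and yak (0.45 ± 0.14 SE), which became −0.16 after median-of-ratios scaling. A further copy (ENSBGRG00000018305) had no fragment in any cattle-yak library and 2, 2 and 4 in yak. Reads of such copies can be shared, so their split is uncertain.

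The ratio of related chains within a library is free of the scaling between libraries, and 8 such ratios, with the most abundant gene of a symbol, were compared with exact permutation tests (two-sided), in which 3 animals against 3 cannot go below p = 0.1. The ratio of DYNLRB2 to DYNLRB1 was 1.01, 0.655 and 0.440 in TES5, TES6 and TES7 and 7.46, 7.88 and 7.07 in Yak8, Yak9 and Yak10, an 11.3-fold difference of geometric means. The ratio of DYNLT3 to DYNLT1 was 0.257 ± 0.041 in cattle-yak against 0.0368 ± 0.0040 in yak (SD, n = 3 each), and that of DYNLL2 to DYNLL1 was 0.406 ± 0.068 and 0.856 ± 0.031. The ratio of DYNC1I1 to DYNC1I2 was 0.197 ± 0.0075 in cattle-yak and 0.0684 ± 0.011 in yak, 2.91-fold higher in cattle-yak. The exact permutation p was 0.1 for each of these 4 ratios and 0.13 after adjustment over the 8, and no cattle-yak value lay within the range of yak.

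Of the axonemal pairs, DNAH17 to DNAH9 was 2.16, 0.891 and 0.492 in cattle-yak and 13.6, 12.0 and 9.43 in yak. DNAI2 to DNAI1 was 0.641, 0.939 and 2.22 in cattle-yak and 0.517, 0.538 and 0.432 in yak. Neither pair overlapped between the groups (exact permutation test, two-sided, p = 0.1, adjusted 0.13). DNAH8 to DNAH5 was 53.4, 4.74 and 2.94 in cattle-yak and 37.97, 38.9 and 28.2 in yak (exact p = 0.4, adjusted 0.46), and its value in TES5 rests on the 7 DNAH5 fragments there. The light intermediate chains differed by less than the spread between animals, with a ratio of DYNC1LI2 to DYNC1LI1 of 2.20 ± 0.15 in cattle-yak against 2.13 ± 0.18 in yak (SD, n = 3 each, exact permutation test, p = 0.6).

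**Figure D3:**
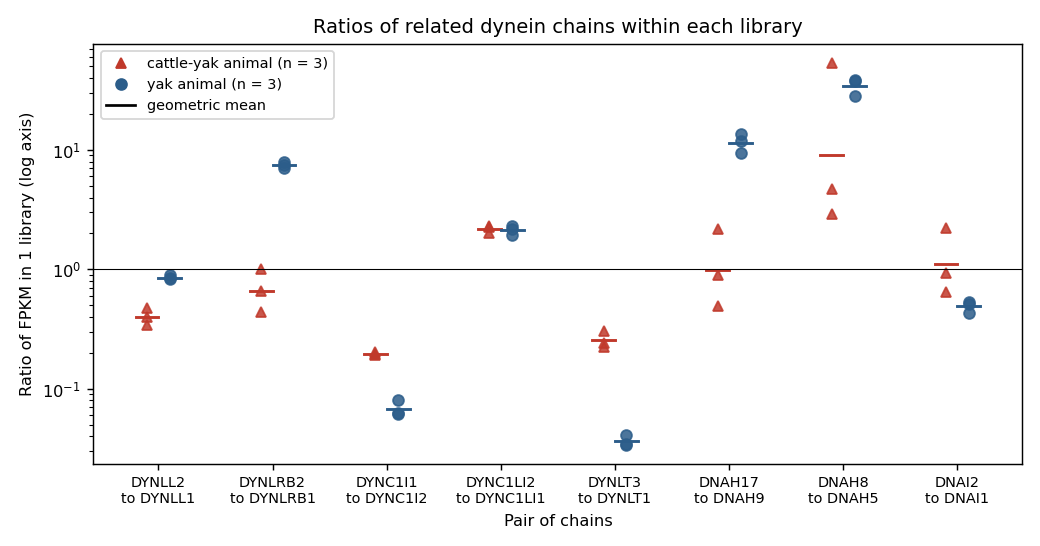
The plot gives the ratio of FPKM of 8 pairs of related dynein chains within each library (log axis), with triangles for cattle-yak, circles for yak and a bar for the geometric mean of each group. The groups are apart in 6 pairs, and overlap for DYNC1LI2 to DYNC1LI1 and for DNAH8 to DNAH5.

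The axonemal genes also varied among the cattle-yak animals in a shared way. In 14 of the 19 tested axonemal genes (73.7%) TES5 was the highest and TES7 the lowest, as in 19.2% of all tested genes and 45.4% of the genes called lower. The median ratio of TES5 to TES7 was 2.41 in the axonemal genes, 1.01 in all tested genes and 1.37 in the genes called lower. Of the 16 axonemal and assembly genes called lower, 11 had a TES5 value over 2-fold above TES7. The ratio was 6.11 for DNAH17, 5.65 for DNAH1 (ENSBGRG00000008005), 5.56 for DNAAF1, 5.29 for DNALI1, 4.98 for DNAI1 and 3.28 for DNAH8. The other 5 had lower ratios, with 1.49 for DNAH7, 1.44 for DNAI2, 1.22 for DNAH12, 1.14 for DNAH10 and 0.980 for DNAH3.

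The sums of the spermatid lists and of the multiciliated cell list had the same order of animals, and those of the spermatocyte and spermatogonia lists did not. The summed FPKM of the round spermatid list was 41.5 in TES5, 18.0 in TES6 and 7.74 in TES7, and that of the elongating spermatid list was 117.6, 53.7 and 37.4. The list of multiciliated cell genes summed to 64.1, 35.6 and 20.4 FPKM, 3.15-fold higher in TES5 than in TES7, as was the elongating spermatid list. Of the multiciliated sums, 42.3, 18.7 and 6.25 FPKM came from 1 gene, PIFO (ENSBGRG00000003845). The spermatocyte list stood at 379.5, 265.6 and 358.8, the spermatogonia list at 456.1, 526.2 and 547.3 and the Sertoli list at 3288, 3350 and 3599. Within the spermatocyte list, 2 of the 10 genes did fall from TES5 through TES6 to TES7, as did 19.2% of all tested genes. They were PIWIL1, at 25.5, 14.6 and 6.99 FPKM, and CCNA1, at 9.54, 6.52 and 4.49 FPKM. Between the groups, the summed axonemal FPKM was 6.54-fold higher in yak, that of the spermatocyte list 2.01-fold, that of the round spermatid list 72.5-fold and that of the elongating spermatid list 168.7-fold. The axonemal difference in summed FPKM thus lay between those of the spermatocyte and the round spermatid lists. The spermatocyte list was split, with 4 of its 10 tested genes called lower and 1 higher, against 20.8% and 33.4% of all tested genes. The part of the cell make-up of each animal in the axonemal values was not tested.

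**Figure D4:**
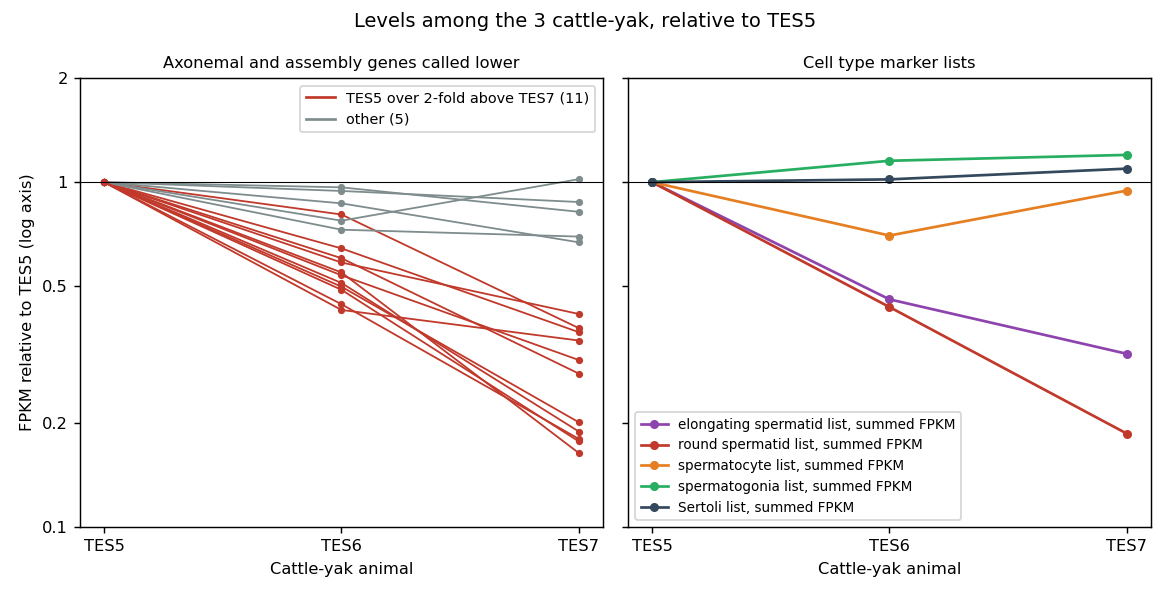
The left panel gives the FPKM of the 16 axonemal and assembly genes called lower in the 3 cattle-yak animals, relative to TES5 (log axis), and the right panel the summed FPKM of 5 marker lists, with lines joining the values of the same gene or list. The red lines are the 11 genes over 2-fold higher in TES5 than in TES7, and the 2 spermatid lists in the right panel are likewise lowest in TES7, while the spermatocyte, spermatogonia and Sertoli lists show no such order.

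Motile cilia also line the efferent ducts next to the testis. A list of 11 genes of the rete testis and efferent ducts summed to 14.2 to 24.4 FPKM in cattle-yak and to 16.6 to 26.3 FPKM in yak, and 1 of its 8 tested genes was called lower and none higher, against 20.8% and 33.4% of all tested genes. PAX2, CDH16 and AQP9 were near 0 throughout, with at most 0.27, 0.11 and 0.15 FPKM. Other members of the list were not, as AQP1 reached 17.97 FPKM in TES6 and WFDC2 6.40 FPKM in Yak8, and LHX1, at 0.298 ± 0.223 and 5.51 ± 1.72 FPKM in cattle-yak and yak (SD, n = 3 each), was the gene called lower (−2.31). A list of multiciliated cell genes summed to 20.4 to 64.1 FPKM in cattle-yak and to 335.4 to 380.6 FPKM in yak, and 6 of its 7 tested genes were called lower, against 20.8% of all tested genes. PIFO (ENSBGRG00000003845) was at 6.25 to 42.3 FPKM in cattle-yak and at 227.1 to 278.1 FPKM in yak, and DEUP1 had means of 2.71 and 48.5 FPKM. GMNC and CCNO, which act early in multiciliated cells, reached at most 0.93 and 0.11 FPKM in any library and were not tested. GMNC had 2, 0 and 1 fragments in cattle-yak and 29, 17 and 39 in yak. CCNO had 2, 0 and 2 fragments in cattle-yak and none in yak. These genes of both lists were named after their values were seen, and the part of such cells in the axonemal values was not tested.

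Most genes of the other parts of the axoneme were called lower as well. Of 19 tested genes of the radial spokes and the central pair, which pass signals to the arms, all 19 were called lower, against 20.8% of all tested genes (27.7% after median-of-ratios scaling, where all 19 were lower too), with a median log2 (foldchange) of −2.83 as deposited and −3.37 after median-of-ratios scaling. On the log2 (FPKM + 1) scale the largest falls of these genes were those of SPAG17, a central pair protein, with a mean of 2.09 ± 1.44 FPKM in cattle-yak and 60.9 ± 2.10 FPKM in yak (−4.44), and of DNAJB13, a radial spoke protein (−4.20). The nexin-dynein regulatory complex links neighbouring doublets. Of 22 tested genes on a list of this complex and the inner arms, 19 were lower and none higher. This compares with 20.8% and 33.4% of all tested genes, and the median was −2.76. The list also holds 3 chains of cytoplasmic dynein 2. They are WDR34 (−0.55, not called), WDR60 (−0.74, not called) and TCTEX1D2 (−1.29, called lower). DRC7 was at 1.82 ± 1.47 and 59.5 ± 6.22 FPKM (−4.55) and DRC3 at 8.72 ± 6.09 and 129.6 ± 4.45 FPKM (−3.94) in cattle-yak and yak (SD, n = 3 each).

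Of 20 tested genes that dock the outer arms or assist their assembly, 14 were lower and 2 higher, against 20.8% and 33.4% of all tested genes, with a median of −1.83. EFCAB1, a calcium sensor of the outer arm also called calaxin, fell from 89.8 ± 11.8 to 1.23 ± 0.33 FPKM (−5.35) and TTC25, a docking complex protein, from 53.8 ± 3.07 to 1.61 ± 1.05 FPKM (−4.47). The 2 higher genes were RPAP3 (1.53) and WDR92 (1.22), cochaperones that are also used outside cilia, and neither was called after median-of-ratios scaling (0.94 and 0.63).

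The partners of cytoplasmic dynein were called at shares near those of all genes in the higher direction. Of 28 tested genes of dynactin, the large cofactor of dynein 1, and of cargo adaptors, 9 were higher and 3 lower, against 33.4% and 20.8% of all tested genes, with a median of 0.64. Median-of-ratios scaling gave 4 higher and 7 lower, against 17.7% and 27.7%. DCTN1, the largest dynactin subunit, was at 108.7 ± 8.12 FPKM in cattle-yak and 46.3 ± 3.73 FPKM in yak (1.21). TRAK1, an adaptor for mitochondria, and RAB11FIP3, an adaptor for recycling endosomes, had the largest rises of these genes on the log2 (FPKM + 1) scale (2.28 and 1.999). HOOK1, an adaptor known from the manchette of elongating spermatids and also on that marker list, had the largest fall on it (−2.26). PAFAH1B1, the dynein regulator LIS1, was at 122.7 ± 21.3 and 383.9 ± 6.17 FPKM (−1.65).

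Of 13 tested genes for transcription factors linked to motile cilia, 7 were lower and 2 higher on the deposited scale, against 20.8% and 33.4% of all tested genes, and the counts were the same after median-of-ratios scaling, against 27.7% and 17.7%. RFX2, which drives spermatid and cilium genes, was at 2.29 ± 1.37 FPKM in cattle-yak and 40.8 ± 16.0 FPKM in yak (−3.67). FOXJ1, a master regulator of motile cilia, was at 0.494 ± 0.383 and 6.59 ± 2.46 FPKM (−2.33). On the log2 (FPKM + 1) scale the largest falls of this list were those of RFX4 (−4.18) and SOX5 (−4.10). TAF7L, a germ cell subunit of the general factor TFIID (2.19), and MYB (1.74) were higher in cattle-yak.

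**Figure D5:**
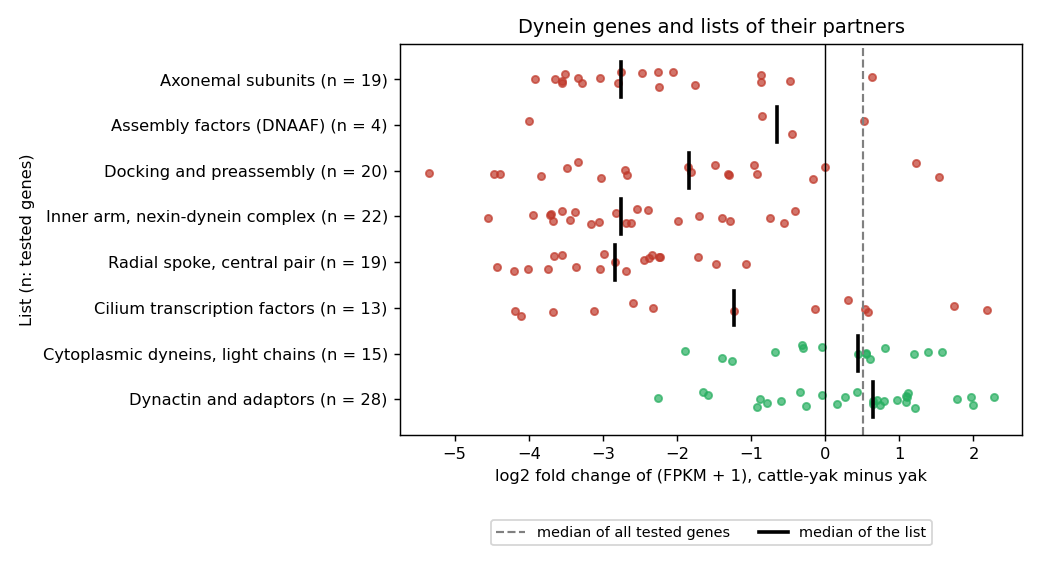
The plot gives the log2 (foldchange) of every tested gene of the dynein classes and of the partner lists on the log2 (FPKM + 1) scale, cattle-yak minus yak, with a bar for the median of each list and a dashed line for the median of all genes (0.51). The axonemal subunits and the 3 lists of axoneme partners lie mostly left of 0, with medians from −2.83 to −1.83, and the cytoplasmic dyneins and dynactin lie around the dashed line, with medians of 0.45 and 0.64.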

How the data were processed

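As the paper's methods describe, the authors prepared stranded mRNA libraries, trimmed the reads with Trimmomatic, mapped those of both groups to the yak genome with HISAT2, calculated FPKM with Cufflinks and counted reads with HTSeq, so hybrid reads of the cattle allele were mapped to yak sequence. The deposited FPKM values are per gene length and library depth, without scaling between libraries. Terms of gene function in the table were not used here. The FPKM steps gave whole fragments and lengths for 17973 of 18918 genes (945 had 1 value above 0), with lengths within 0.02 bases of a whole number in 99.99%. Replicates differed by more than sampling noise (chi-square per degree of freedom from 11.2 to 16.7). Nothing gives a batch.

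The genes whose FPKM averaged 0.5 or more were compared by limma (version 3.58.1, R 4.3.3, two-sided lmFit and trended eBayes, Benjamini-Hochberg over 15042 genes) on log2 (FPKM + 1), and called at adjusted p under 0.05 and log2 (foldchange) beyond 1. The fit was tested on simulated data with as many genes raised as lowered. That setting does not test how the calls depend on the scaling between libraries. Ratios and figures were made with Python 3.11.15, numpy 2.4.6, pandas 2.3.3, scipy 1.17.1 and matplotlib 3.10.9. The members, roles, partner lists and marker lists were chosen with earlier results of these data known. Members with a mean of at least 0.5 FPKM in a group are named with their values, and of each partner list the 2 genes with the largest called change in each direction, with FOXJ1, RFX2, DCTN1 and PAFAH1B1. Symbols are written in capitals, and genes sharing a symbol were kept apart. Alternatives were other pseudocounts, filters, scalings, variance priors and fold thresholds, voom on recovered fragments, and the omission of each animal.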

Additional observations from a re-analysis of the deposited data

How the results depend on the processing

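The axonemal count of 15 lower genes was between 12 (minimum mean FPKM 5, which leaves fewer genes) and 19 (libraries centred on the Sertoli list) and was 15 under each omission of an animal. No member changed its call under TPM, no filter, pseudocounts of 0.1 and 0.01, no variance trend, a robust prior, voom or the omission of any animal. The count of lower assembly factors moved from 1 to 4 with Sertoli centring, 3 with median-of-ratios scaling, 3 with no fold threshold and 2 with quantile normalization. For cytoplasmic genes the lower count of 3 became 12 with Sertoli centring, 0 with a log2 (foldchange) beyond 2 and 5 with no fold threshold, and the higher count of 3 became 0, 0 and 7, and 0 with median-of-ratios scaling. Over all genes the 5023 higher calls became 55 with Sertoli centring, 1165 beyond a log2 (foldchange) of 2, 2655 with median-of-ratios scaling and 7916 with no fold threshold. The 3136 lower calls became 10122 with Sertoli centring and 1740 beyond a log2 (foldchange) of 2, and the 8159 calls in all became 2905 beyond 2 and 12315 with no fold threshold. Voom on the recovered fragments gave 5961 higher and 3417 lower. Sertoli centring shifts all genes of a library by the same amount on the log2 scale, and it moved the median of all genes to −1.51. Median-of-ratios scaling acts before the pseudocount is added, so it shifts low genes less, and quantile normalization works by rank.

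The median axonemal log2 (foldchange) minus the cytoplasmic median was −3.20, and moved to −2.57 with no filter, −4.13 with a pseudocount of 0.01, −4.08 with 0.1 and −4.13 with voom. It was −3.35 to −2.98 when animals were left out. With Sertoli centring the sign turned for DNAAF5 (−1.50), DNAH11 (−1.40), DYNC1H1 (−1.22), DYNC1I1 (−0.83), both DYNC1LI1 genes (−1.47 and −1.48), DYNC1LI2 (−1.42), the shorter DYNLL1 gene (−1.58), DYNLRB1 (−0.45) and DYNLT3 (−0.64). With median-of-ratios scaling it turned for DNAAF5 (−0.0481), DYNC1LI1 (ENSBGRG00000023685, −0.0486), DYNC1LI2 (−0.0041) and the shorter DYNLL1 gene (−0.16). When animals were left out, DYNC1I2 ran from −0.16 to 0.0645, the latter without TES6, and the log2 difference of the DYNC1LI2 to DYNC1LI1 ratio from −0.0239, without Yak10, to 0.11. No paired analysis was possible because the labels give the animals of the groups no common numbers. Depth limits DNAH5, the DYNC1H1 and DYNLL1 copies and the DNAH14 pieces.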

Other observations

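In yak, most heavy chain genes were lowest in Yak10. Over the 17 heavy chain genes (axonemal, DYNC1H1 and DYNC2H1) Yak10 was the lowest yak library in 12, and the median ratio of Yak10 to the mean of Yak8 and Yak9 was 0.846. DYNC1H1 was at 30.1 FPKM in Yak10 against 46.4 and 49.5 FPKM in the other yak libraries, and DNAH17 at 34.9 against 50.2 and 52.2 FPKM. The median ratio was 0.919 over the 90 longest tested genes of the table, Yak10 being the lowest in 47.8% of these, and 1.05 over the 2894 shortest. No call of a dynein gene changed without Yak10, and the cause was not tested.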
